A study of Mus musculus with 8 samples.

Results

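The 9 genes described here encode cytokines or cytokine subunits of the IL-10, IL-12 and IL-6 families, together with Il15: Il10, Il12b, Il23a, Il27, Ebi3, Il6, Osm, Lif and Il15. They were taken by gene symbol from the 21051 genes listed in the deposited tables. All 9 had a value in the RNA of tumor-associated macrophages (TAMs), and all 9 were among the 12412 genes tested.

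TAMs were sorted as CD45+F4/80+ cells from s.c. B16 melanomas of 4 WT mice (TAM-WT) and 4 Colec11-/- mice (TAM-KO) of the C57BL/6 strain, all on day 14 after tumor cell injection, with 1 library per mouse. B16 is a pigmented mouse melanoma line that grows in C57BL/6 hosts. Per the study's methods, the mice were young adult males, the controls were WT littermates, and Colec11, which encodes the secreted lectin collectin-11, was deleted in the whole animal rather than in macrophages alone, so other host cells lacked it too, while the injected B16 cells did not carry the deletion. The question was how TAMs differ when the host lacks collectin-11.

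Macrophage markers were abundant in all libraries, with 10 of 10 listed genes tested, led by the lysosomal protein gene Cd68 and the mannose receptor gene Mrc1. The targeted gene checked no label, since Colec11 reached at most 4 counts in any TAM-WT library (0 in replicate 3, 1 in replicates 1 and 4) and had 1 count in each TAM-KO library. Depth in the other 7 libraries than TAM-KO replicate 1 ran from 16225362 to 17280267 reads on genes. The table of TAM-KO replicate 1 lacks 5311 genes, so 6 of the 9 cytokine genes (Il10, Il12b, Il6, Osm, Lif and Il15) were tested against 3 TAM-KO libraries and the other 3 against 4. For Il10, Il6, Osm and Lif the authors' series-wide table gives TAM-KO replicate 1, and that value is shown with the levels although it did not enter the test. This table lists selected genes of the authors' own comparison. Il12b and Il15 have no value for TAM-KO replicate 1.

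IL-12 family cytokines are heterodimers of a helical subunit and a receptor-like subunit: p40, encoded by Il12b, pairs with p35 (Il12a) to form IL-12 and with p19 (Il23a) to form IL-23, while EBI3 pairs with p28 (Il27) to form IL-27. IL-12 drives interferon gamma production by T and NK cells, and IL-23 sustains IL-17-producing T cells. IL-10 signals through STAT3 to restrain macrophage activation. IL-6, oncostatin M (Osm) and leukemia inhibitory factor (Lif) signal through the shared receptor chain gp130, and IL-15 sustains NK cells and memory CD8+ T cells.

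Promoter sequences are shown for 3 genes that represent a member that passed the test (Il12b), the member with the largest difference (Lif) and a member whose interval is narrow around 0 (Ebi3). Each is the 300-base window from 250 bases before to 50 after the annotated start, from RefSeq on GRCm38.p6. Capitals mark matches, on either strand, to kappa-B, AP-1 (TGANTCA), the CRE core (TGACG), C/EBP (TTGCNNAA), STAT (TTCNNNGAA), ISRE or TATA box (TATAAA) letters.
Il12b, chr11:44399813-44400112, plus strand: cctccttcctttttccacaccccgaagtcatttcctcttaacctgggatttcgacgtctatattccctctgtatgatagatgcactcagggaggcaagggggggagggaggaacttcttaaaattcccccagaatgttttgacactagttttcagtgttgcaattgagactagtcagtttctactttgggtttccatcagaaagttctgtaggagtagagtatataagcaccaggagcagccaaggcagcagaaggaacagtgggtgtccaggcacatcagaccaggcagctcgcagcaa
Lif, chr11:4257318-4257617, plus strand: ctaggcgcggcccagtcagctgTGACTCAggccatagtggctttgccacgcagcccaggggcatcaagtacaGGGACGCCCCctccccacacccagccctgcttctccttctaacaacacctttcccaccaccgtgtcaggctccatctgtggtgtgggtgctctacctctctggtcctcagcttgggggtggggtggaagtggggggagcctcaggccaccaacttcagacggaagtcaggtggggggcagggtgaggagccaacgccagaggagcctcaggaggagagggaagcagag
Ebi3, chr17:55952373-55952672, plus strand: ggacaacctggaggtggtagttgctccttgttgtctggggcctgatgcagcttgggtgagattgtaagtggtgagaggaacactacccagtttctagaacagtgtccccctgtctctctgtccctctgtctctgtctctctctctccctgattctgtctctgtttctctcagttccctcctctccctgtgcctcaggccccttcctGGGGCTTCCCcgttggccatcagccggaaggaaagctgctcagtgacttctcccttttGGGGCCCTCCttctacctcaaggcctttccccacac

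The Il12b window held no exact match to the letters of the 7 motifs, the Lif window held 1 kappa-B and 1 AP-1 match, and the Ebi3 window held 2 kappa-B matches. The Il6 window, the only other one at hand of the 9 genes, held 1 match each to kappa-B, AP-1, the CRE core and C/EBP. Of 32851 promoter windows of the same length, 8.46% held a kappa-B match, 7.81% an AP-1 match, 20.8% a CRE core, 10.8% a C/EBP match, 8.3% a STAT match, 3.44% an ISRE match and 13.6% a TATA box. A match describes letters only, not binding, and the lack of an exact match does not show that a site is absent.

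Cytokine mRNAs are known for AU-rich elements in their 3′ UTRs, which bind proteins that set how fast an mRNA decays. All 9 genes had at least 1 ATTTA pentamer in the 3′ UTR of 1 GENCODE M21 transcript (GRCm38), compared with 61.7% of 20979 genes. Il27 had 5 pentamers in 285 bases (17.5 per kb) and Il6 had 6 in 427 bases (14.1 per kb), the highest densities of the 9, against a median of 1.14 per kb over all genes. Il10, Il12b, Il23a and Osm had 6 each, Lif had 7 in 3180 bases, and Ebi3 and Il15 had 1 each. The overlapping nonamer TTATTTATT was found in Il23a, Il27 and Lif, 3 of the 9 genes, and in 6.98% of all genes. The 30 bases with the most pentamers are shown for the genes of greatest interest below, with ATTTA in capitals.
Il12b, from base 237 of the 3′ UTR: ATTTAagtaATTTAtgtATTTAttaATTTA
Il27, from base 176 of the 3′ UTR: ccagatATTTAtttcttggatATTTATTTA
Lif, from base 3080 of the 3′ UTR: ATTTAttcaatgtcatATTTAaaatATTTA

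By FPKM, which is scaled to gene length so that genes can be compared, Osm was the most abundant of the 9 genes (mean of the libraries 45.4), followed by Ebi3 (28.9), Il10 (21.4), Il15 (14.1), Il27 (2.95), Lif (1.84), Il12b (0.737), Il23a (0.7) and Il6 (0.689). The genes thus fell into 4 at 14.1 FPKM or more and 5 at 2.95 FPKM or less. Between these sets, the lowest Il15 value was above the highest Il27 value in TAM-WT (10.11 and 3) and in TAM-KO (11.84 and 6.2). Of the other neighbors in this order, Osm was above Ebi3 in each TAM-WT library but not in TAM-KO, Il27 was above Lif in each TAM-KO library but not in TAM-WT, and the rest had overlapping ranges in both groups.

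**Figure D1:**
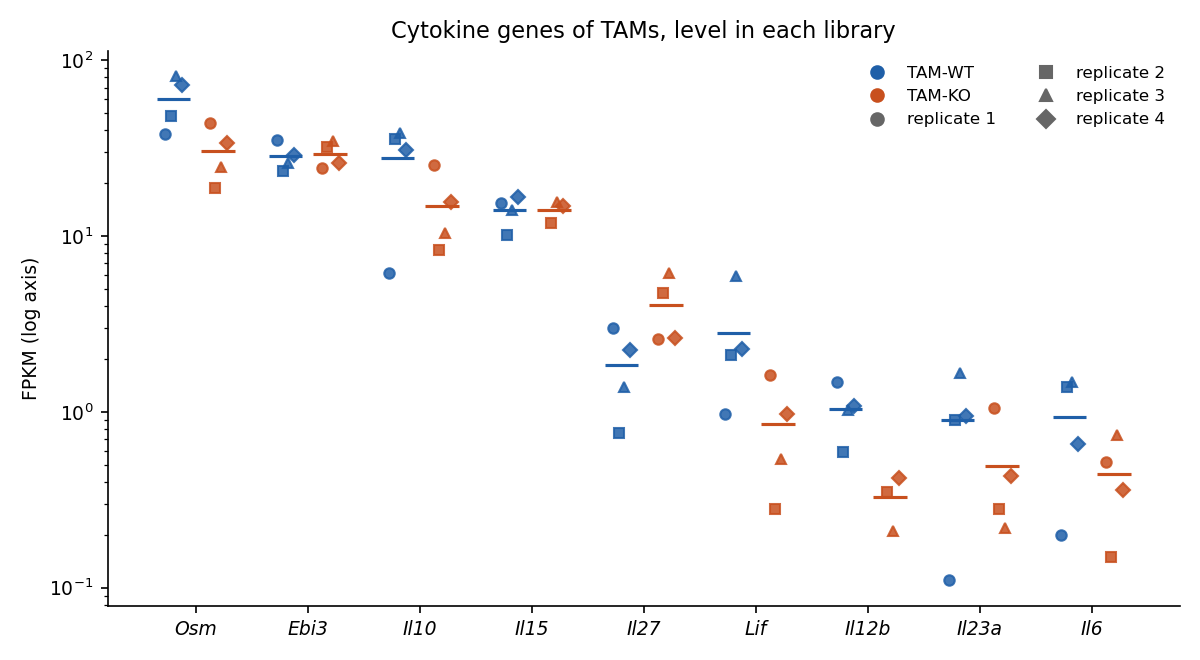
FPKM of each cytokine gene (log axis) in each TAM-WT (blue) and TAM-KO (orange) library, with the replicate number as the symbol and the group mean as a line. Il12b is the gene whose groups do not overlap, with TAM-WT from 0.59 to 1.49 and the 3 TAM-KO libraries from 0.21 to 0.42; Ebi3 and Il15 lie at the same level in both groups.

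Compared with TAM-WT, 2 of the 9 genes were lower in TAM-KO at an adjusted p of at most 0.05 (edgeR quasi-likelihood test, Benjamini-Hochberg over all genes), Il12b and Osm, and 0 were higher. An unadjusted p under 0.05 was reached by 5 of the 9 (Il10, Il12b, Il27, Osm and Lif). Of all 12412 genes tested, 9.81% passed, 5.24% in the lower and 4.58% in the higher direction, and 3806 had an unadjusted p under 0.05. The log2 fold change was below 0 for 8 of the 9 genes and above 0 for Il27, with a median of -1.29, beside 49.7% below 0 and a median of 0.0 over all genes tested. FPKM of the groups did not overlap for 1 of the 9 genes and for 18.9% of all genes. The count of cytokine genes passing depended on single libraries: it was 0 when replicate 3 or 4 of TAM-WT or replicate 2 or 3 of TAM-KO was left out, 1 when TAM-KO replicate 1 was left out (through the adjustment over all genes alone), and 4 when TAM-WT replicate 1 was left out. In sorted bulk RNA, fewer expressing cells and less RNA per cell cannot be told apart.

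**Figure D2:**
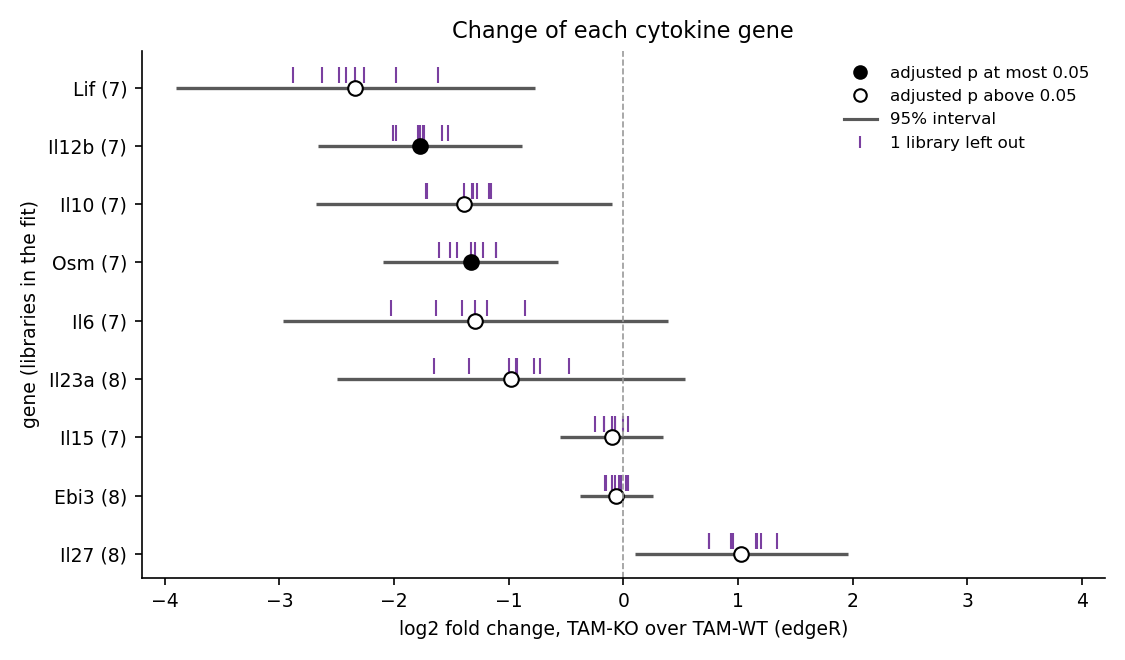
Log2 fold change of each cytokine gene, TAM-KO over TAM-WT, with its 95% interval (line), the number of libraries in the fit and the values with 1 library left out (purple ticks). Il12b and Osm (filled) passed at -1.77 and -1.33; the interval of Lif reaches from -3.9 to -0.77 and that of Ebi3 from -0.38 to 0.26.

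Il12b, which encodes the p40 subunit shared by IL-12 and IL-23 (chr11:44400063-44414677, plus strand), was lower in TAM-KO. In replicate order, the TAM-WT libraries had FPKM of 1.49, 0.59, 1.02 and 1.08. The TAM-KO libraries, from replicate 2 on, had 0.35, 0.21 and 0.42. Each TAM-KO library was below the lowest TAM-WT library. The means were 1.04 ± 0.368 (SD, n = 4) and 0.327 ± 0.107 (SD, n = 3), and the fitted fold was 3.41 lower in TAM-KO (log2 fold change -1.77, SE 0.39, adjusted p = 0.0329). The gene rested on few reads, from 8 to 57 counts per library, and its call was lost when TAM-WT replicate 3 (adjusted p = 0.0904) or 4 (0.0698), or TAM-KO replicate 2 (0.119) or 3 (0.117), was left out.

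Il12a, which encodes the p35 partner that makes IL-12 from p40, had at most 1 count in any library and was not tested. Il23a, which encodes the p19 partner of IL-23 (chr10:128296140-128298084, minus strand), had FPKM of 0.11, 0.9, 1.66 and 0.95 in TAM-WT and 1.05, 0.28, 0.22 and 0.43 in TAM-KO. TAM-WT replicate 1 was the lowest of all 8 libraries, and the other TAM-WT libraries overlapped TAM-KO replicate 1. The log2 fold change of Il23a was -0.98 (SE 0.68, adjusted p = 0.36), with a 95% interval from -2.5 to 0.54 on 2 to 31 counts. Without TAM-WT replicate 1 it was -1.35 and did not pass (adjusted p = 0.126). The FPKM ratio of Il12b to Il23a was 13.5 in TAM-WT replicate 1, from 0.614 to 1.14 in the other TAM-WT libraries and from 0.955 to 1.25 in TAM-KO.

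Ebi3 and Il27, which encode the subunits of IL-27, differed in their levels. Ebi3 (chr17:55952623-55957022, plus strand) had FPKM of 35.45, 23.42, 26.23 and 29.01 in TAM-WT and 24.32, 32.11, 34.92 and 25.97 in TAM-KO, ranges that lie over each other. Its log2 fold change was -0.06 (SE 0.14, adjusted p = 0.805), and the 95% interval from -0.38 to 0.26 leaves out a change of 2-fold in either direction. The p28 gene Il27 (chr7:126589009-126595035, minus strand) had FPKM of 3, 0.76, 1.38 and 2.26 in TAM-WT and 2.61, 4.75, 6.2 and 2.65 in TAM-KO. Only TAM-WT replicate 1 exceeded the lowest TAM-KO libraries. The log2 fold change of Il27 was 1.03 (SE 0.41, 95% interval 0.1 to 1.96), the one positive value of the 9 genes, and it did not pass (adjusted p = 0.127) in the 8-library fit or with any library left out (lowest adjusted p 0.0875, without TAM-WT replicate 1).

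Within each library, the FPKM of Ebi3 was 11.8, 30.8, 19.0 and 12.8 times that of Il27 in TAM-WT and 9.32, 6.76, 5.63 and 9.8 times in TAM-KO. The ratios of the groups did not overlap, so p28 mRNA was closer to EBI3 mRNA in every TAM-KO library than in any TAM-WT library. On the log2 scale the mean ratio went from 4.11 in TAM-WT to 2.94 in TAM-KO, a difference of -1.17 with a two-sided exact permutation p of 0.0286, the smallest that 4 against 4 libraries allow, and 0.143 adjusted over the 5 ratios compared, which did not pass. Of the other ratios, Osm to Lif differed by 0.72 on the log2 scale (exact permutation p = 0.171), Osm to Il6 by -0.06 (0.943), Il10 to Il12b by 0.63 (0.8) and Il12b to Il23a by -0.58 (1.0), where for the last pair of ratios 4 against 3 libraries cannot go below 0.0571.

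**Figure D3:**
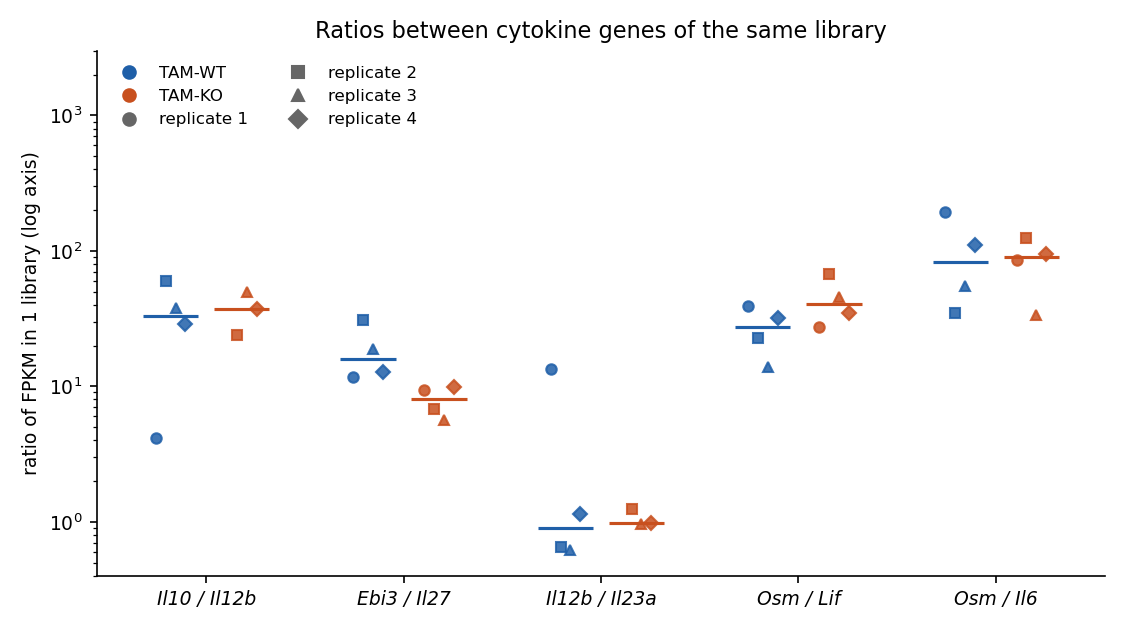
Ratio of the FPKM of a pair of cytokine genes within each library (log axis), TAM-WT in blue and TAM-KO in orange, with the replicate number as the symbol and the group median as a line. The ratio of Ebi3 to Il27 lies between 11.8 and 30.8 in TAM-WT and between 5.63 and 9.8 in TAM-KO, while the other ratios overlap.

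Il10, the anti-inflammatory cytokine of macrophages and regulatory T cells (chr1:131019845-131024970, plus strand), had FPKM of 6.21, 35.64, 38.52 and 30.98 in TAM-WT and 25.27, 8.4, 10.37 and 15.6 in TAM-KO. TAM-WT replicates 2, 3 and 4 were above all TAM-KO libraries, and replicate 1 was below them all. The log2 fold change was -1.39 (SE 0.56, 95% interval -2.68 to -0.1) and did not pass (adjusted p = 0.138). Without TAM-WT replicate 1 it was -1.72 with an adjusted p of 0.0133, so the call depended on this library. Il10 also passed when replicate number was added to the edgeR model (-1.76, adjusted p = 0.0239). In that 7-library fit TAM-WT replicate 1 had no same-numbered TAM-KO library, so it did not inform the genotype difference. The block fit is thus close to leaving this library out. With TAM-KO replicate 1 included from the series-wide table, the log2 fold change was -1.03 (adjusted p = 0.222). TAM-WT replicate 1 also had the highest summed T cell and NK cell markers of the TAM-WT libraries, at 30.1 and 25.7 CPM, and the part of these cells in its Il10 level was not tested. The ratio of Il10 to Il12b was 4.17 in TAM-WT replicate 1, from 28.7 to 60.4 in the other TAM-WT libraries and from 24.0 to 49.4 in TAM-KO.

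Of the gp130 cytokines, Osm (chr11:4236785-4241026, plus strand), a product of activated macrophages and neutrophils, was lower in TAM-KO. Its FPKM, in replicate order, was 38.36, 48.31, 81.6 and 72.84 in TAM-WT and 44.14, 18.79, 24.85 and 34.01 in TAM-KO. The 3 TAM-KO libraries of the test, replicates 2 to 4, were below all TAM-WT libraries, and TAM-KO replicate 1 was above TAM-WT replicate 1. The means were 60.3 ± 20.3 and 30.4 ± 11.1 FPKM (SD, n = 4 each), and the test on 7 libraries gave a log2 fold change of -1.33 (SE 0.33, adjusted p = 0.0452), a fold of 2.52. With the series-wide value of TAM-KO replicate 1 included, Osm no longer passed (-1.12, adjusted p = 0.0613). The call was also lost when TAM-WT replicate 3 (adjusted p = 0.11) or 4 (0.0956), or TAM-KO replicate 2 (0.154) or 3 (0.143), was left out. Leaving out TAM-KO replicate 1, which did not enter the fit of Osm, kept the log2 fold change at -1.33 and changed only the adjustment over all genes (adjusted p = 0.0551).

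Lif, which maintains pluripotent cells and is known as a product of tumors and their stroma (chr11:4257568-4272514, plus strand), starts 16542 bases after the end of Osm on the same strand. It had FPKM of 0.98, 2.11, 5.91 and 2.27 in TAM-WT and 1.62, 0.28, 0.54 and 0.98 in TAM-KO. TAM-WT replicate 3 stood highest by far, and TAM-KO replicates 1 and 4 reached the level of TAM-WT replicate 1. Lif had the largest difference of the 9 genes, a log2 fold change of -2.34 (SE 0.68, 95% interval -3.9 to -0.77), but did not pass (adjusted p = 0.0643). It passed without TAM-WT replicate 1 (adjusted p = 0.0363) and without TAM-WT replicate 2 (0.0464), and with TAM-KO replicate 1 included the value was -1.84 (0.0875).

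Il6, the founding gp130 cytokine of the acute phase response (chr5:30013114-30019975, plus strand), was barely detected, with 3, 21, 22 and 10 counts in TAM-WT and 8, 2, 11 and 5 in TAM-KO. Its FPKM was 0.2, 1.39, 1.49 and 0.66 in TAM-WT and 0.52, 0.15, 0.74 and 0.36 in TAM-KO. The groups overlapped throughout, and the log2 fold change of -1.29 (SE 0.73, adjusted p = 0.271) had an interval from -2.97 to 0.39. The lowest TAM-WT library was again replicate 1 and the highest replicate 3.

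Il15, which encodes the cytokine that macrophages and dendritic cells present to NK and CD8+ T cells (chr8:82331624-82403252, minus strand), had FPKM of 15.55, 10.11, 14.14 and 16.64 in TAM-WT and 11.84, 15.63 and 14.9 in TAM-KO, from replicate 2 on. The means were equal at 14.1 FPKM (SD 2.86, n = 4, and 2.01, n = 3). The log2 fold change was -0.1 (SE 0.2, adjusted p = 0.763), with an interval from -0.55 to 0.35.

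The libraries ranked alike for several of these genes. TAM-WT replicate 1 was the lowest TAM-WT library for 5 genes (Il10, Il23a, Il6, Osm and Lif) and the highest for 3 (Il12b, Il27 and Ebi3). TAM-WT replicate 3 was the highest for the same 5 genes in which replicate 1 was the lowest, and TAM-WT replicate 2 was the lowest for the remaining 4. Among the TAM-KO libraries, replicate 1 was the highest for Il10, Il23a, Osm and Lif and the lowest for Il27 and Ebi3. The spread within TAM-WT was widest for Il23a, whose highest library was 15.1 times the lowest, and narrowest for Ebi3 at 1.51 times.

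The genes most like each abundant cytokine gene were ranked by Pearson's r of log2 CPM over the libraries of its fit, as a description with no test. Il10 was most like Rnf146 (r = 0.984) and Arid5a (0.98), Osm like Scpep1 and Rassf8 (0.996 each), Lif like Plk3 (0.993) and Prdx6 (0.992), and Il15 like AA467197 (0.969) and Usp34 (0.962), each over 7 libraries. Ebi3 was most like Rp2 (0.966) and Mfsd4a (0.944) over 8 libraries. With so few libraries high values are common: of the 12411 genes compared, 884 had r above 0.9 with Osm, 586 with Lif, 115 with Il10 and 62 with Il15, and of 9395 genes 19 had it with Ebi3. The points share the genotype groups and the library depth.

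Other genes of the same pathways were counted by role, over 83 genes of which 68 were tested. Of these, 8 passed (11.8%, beside 9.81% of all genes), 6 higher and 2 lower in TAM-KO. Leaving out TAM-WT replicate 3 or TAM-KO replicate 2 or 3 brought the count to 1, TAM-WT replicate 4 to 3, TAM-KO replicate 1 to 5, TAM-WT replicate 1 to 14 and TAM-WT replicate 2 to 16. Of 16 other ligands of these families, 3 had enough reads to test, and 0 passed in edgeR (0 also had an unadjusted p under 0.05, and 0 passed in DESeq2). The most abundant was Clcf1, a gp130 ligand, at 4.1 ± 0.824 FPKM in TAM-WT and 3.62 ± 0.962 in TAM-KO (SD, n = 4 each).

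Of the receptor chains, 1 of 13 tested passed in edgeR (7.69%), higher in TAM-KO, with a median log2 fold change of 0.29 (6 had an unadjusted p under 0.05, and 4 passed in DESeq2). The one that passed in edgeR was Il12rb1, which encodes the chain that IL-12 and IL-23 receptors share, at 1.4 ± 1.08 FPKM in TAM-WT and 5.85 ± 2.21 in TAM-KO (SD, n = 4 each; log2 fold change 2.06, SE 0.48, adjusted p = 0.0376). T and NK cells are its best known source. As given below, the summed T cell markers were higher in TAM-KO, and the NK cell sums of the groups overlapped. The part of these cells in the Il12rb1 values was not tested. Its call held in 4 of the 8 fits with 1 library left out and was lost without TAM-WT replicate 3 or 4 or TAM-KO replicate 2 or 3 (highest adjusted p 0.128). The most abundant chains, Il10rb of the IL-10 receptor and the common gamma chain Il2rg, had log2 fold changes of 0.07 (SE 0.08, adjusted p = 0.563) and 0.42 (SE 0.19, adjusted p = 0.183).

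Of the 19 genes of JAKs, STATs and feedback inhibitors, 4 passed in edgeR, all higher in TAM-KO (21.1%), with a median of 0.08 (6 had an unadjusted p under 0.05, and 6 passed in DESeq2). Among the 4 were Socs1, an inhibitor of JAK signaling (log2 fold change 1.45, SE 0.34, adjusted p = 0.0393), Stat2, a transducer of type I interferon signaling (0.85, SE 0.22, adjusted p = 0.0442), and Tyk2, a kinase of the IL-12, IL-23 and IL-10 receptors (0.26, SE 0.07, adjusted p = 0.0426). Socs1 passed in 4 of 8 fits with 1 library left out, Stat2 in 3 and Tyk2 in 2. Socs1 was lost with TAM-WT replicate 3 or 4 or TAM-KO replicate 2 or 3 left out, Stat2 with TAM-WT replicate 3 or any 1 TAM-KO library left out, and Tyk2 passed only without TAM-WT replicate 2 or TAM-KO replicate 1. The phosphatase gene Ptpn6, the most abundant of the list, had a log2 fold change of 0.4 (SE 0.13, adjusted p = 0.0867).

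Of 10 genes that IL-10 or STAT3 is known to induce in macrophages, 1 passed in edgeR, lower in TAM-KO, with a median of -0.43. The log2 fold change was below 0 for 8 of them, 6 had an unadjusted p under 0.05, and 5 passed in DESeq2. This was Cd163, the scavenger receptor for hemoglobin bound to haptoglobin, at 6.85 ± 1.49 FPKM in TAM-WT and 1.59 ± 0.755 in TAM-KO (SD, n = 4 each). Its groups did not overlap, the log2 fold change was -2.24 (SE 0.3, adjusted p = 0.00933), and it passed in 8 of 8 fits with 1 library left out, as none of the 9 cytokine genes did. The most abundant genes of the list, Hmox1, which degrades heme, and Zfp36, whose product tristetraprolin binds AU-rich elements, had log2 fold changes of -0.48 (SE 0.24, adjusted p = 0.216) and -0.9 (SE 0.25, adjusted p = 0.0521).

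Of 25 transcription factors known to act on these cytokine genes, 1 was higher and 1 lower in TAM-KO in edgeR (8%), with a median of -0.11. In this list 12 had an unadjusted p under 0.05, and 9 passed in DESeq2. Irf1, an interferon-induced factor that acts on Il12b and Il15 promoters, was higher (log2 fold change 0.82, SE 0.21, adjusted p = 0.0488), but passed in only 1 of 8 fits with 1 library left out, that without TAM-WT replicate 2. Atf3, a stress-induced repressor of Il6 and Il12b, was lower (-1.42, SE 0.36, adjusted p = 0.0465) and passed in 3 of 8, those without TAM-WT replicate 1 or 2 or TAM-KO replicate 4. The immediate early genes Fos and Junb, the most abundant of the list beside Atf3, had log2 fold changes of -0.87 (SE 0.23, adjusted p = 0.0521) and -0.85 (SE 0.25, adjusted p = 0.0676).

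**Figure D4:**
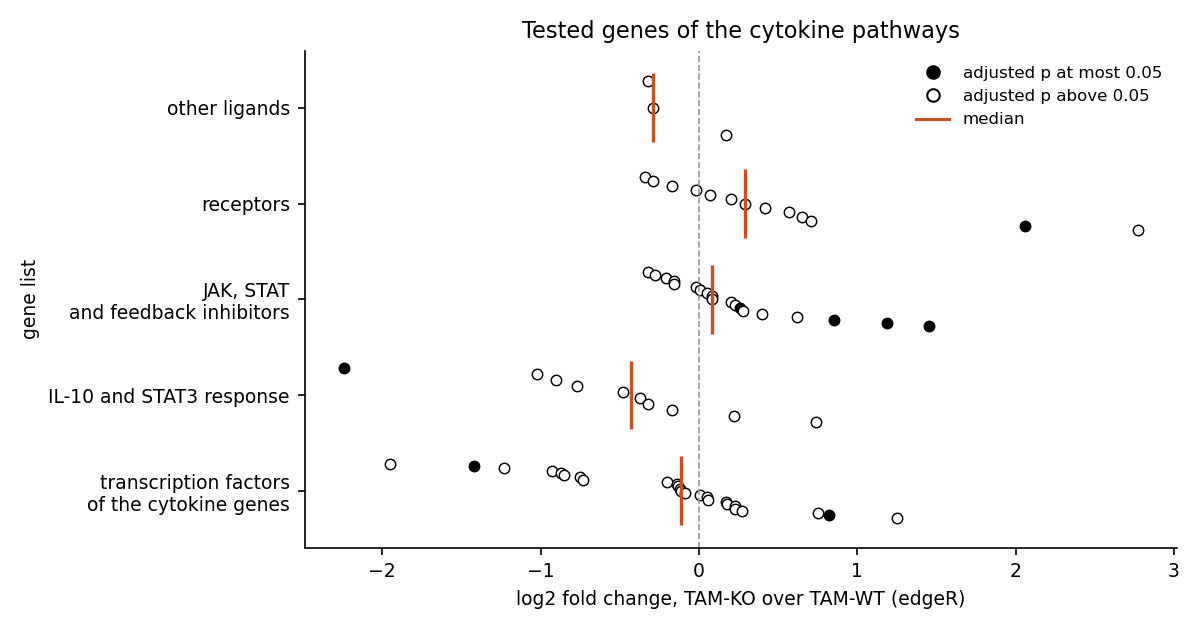
Log2 fold change of each tested gene of the 5 pathway lists, TAM-KO over TAM-WT, filled where the adjusted p is at most 0.05, with the list median in orange. The 4 filled points lie above 0 among JAKs, STATs and inhibitors, and Cd163 at -2.24 is the lowest filled point.

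Markers of other cells were summed in the 7 libraries that list every gene. The genes said to lead a list are highest by CPM, which is not scaled to gene length, so the order by FPKM can differ. Over 9 T cell genes, led by Cd8a and Cd4, the TAM-WT sums ranged from 5.39 to 30.1 CPM and the TAM-KO sums from 33.4 to 77.0, without overlap, and 1 gene was higher (8 of the 9 had an unadjusted p under 0.05). The 8 NK cell genes, led by Gzmb and Klrk1, summed to 1.43 to 25.7 and 21.6 to 72.6 CPM (2 higher). These cells are sources of Il10 and targets of IL-12 and IL-15, and their part in the cytokine values was not tested.

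Among myeloid lists, the macrophage genes summed to 8780 to 11500 CPM in TAM-WT and 7940 to 9470 in TAM-KO (1 of 10 lower). The 6 monocyte genes, with Ccr2 and Vcan the highest by CPM, summed to 225 to 510 and 466 to 536 (3 higher). By FPKM, Plac8 and Ly6c2 were the highest of these 6 (mean of the libraries 85.5 and 76.3). Both were higher in TAM-KO in edgeR (log2 fold changes 1.41 and 1.79, adjusted p = 0.0123 and 0.044). The 10 dendritic cell genes, led by Fscn1 and Ccl22, summed to 31.1 to 79.2 and 48.8 to 63.0 CPM (1 higher), and the 9 neutrophil genes, led by Csf3r and Mmp8, to between 124.0 and 130.0 in TAM-KO, inside the TAM-WT range, which reached 182.0 (1 higher). These sums leave out TAM-KO replicate 1, so they do not show the neutrophil RNA of that library. With it included, Cxcr2 had a TAM-KO median of 0.485 and a maximum of 2.37 FPKM, and Mmp9 of 0.59 and 2.47. Their TAM-WT maxima were 0.49 and 0.58. Csf3r was higher in each TAM-KO library (24.02 to 33.6 FPKM) than in any TAM-WT library (13.12 to 23.02), with a log2 fold change of 0.58 in the 7-library fit. Mmp8 went the other way in that fit (log2 fold change -1.22), so the sum joins opposite differences. Neither passed in edgeR (adjusted p = 0.0737 and 0.0603). Of the 6 neutrophil genes tested, 4 had an unadjusted p under 0.05, and 4 passed in DESeq2. Dendritic cells are a known source of Il12b and neutrophils of Osm. In TAM-WT replicates 1 to 4 the dendritic cell sums were 79.2, 31.1, 54.7 and 60.4 CPM, the same order as the Il12b levels of those libraries. The NK cell sums of TAM-WT had this order too (25.7, 1.43, 2.99 and 4.54). In TAM-KO replicates 2, 3 and 4 the NK cell sums were 72.6, 62.4 and 21.6, not in the order of Il12b. The dendritic cell sums of those libraries were 50.2, 48.8 and 63.0, in the order of Il12b as in TAM-WT. These sums lay inside the TAM-WT range, while each TAM-KO value of Il12b was below TAM-WT. The part of any of these cells in the Il12b and Osm values was not tested.

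Of the non-myeloid lists, the 6 melanoma genes, led by Tyrp1 and Pmel, summed to 3700 to 7730 CPM in TAM-WT and 6820 to 8490 in TAM-KO, with all 6 log2 fold changes above 0, from 0.49 to 0.82 (1 passed, 5 had an unadjusted p under 0.05, and 4 passed in DESeq2). Fibroblast genes, with Col1a1 and Col1a2 the most abundant of 7, summed to 12.2 to 33.9 and 15.8 to 26.3 CPM, the 6 endothelial genes, led by Kdr and Vwf, to at most 22.5 in TAM-WT replicates 1, 2 and 3, 37.3 in replicate 4 and 36.7 to 45.6 in TAM-KO, and the 5 B cell genes, led by Cd79b and Cd79a, to 4.53 to 7.24 and 5.9 to 10.3, with 0 genes of these 3 lists passing in edgeR (1 gene of each had an unadjusted p under 0.05, and 1 endothelial gene passed in DESeq2). No marker was at 0 in all 7 libraries. Tumor and stromal cells are known sources of Lif and Il6, and their part in these values was not tested.

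**Figure D5:**
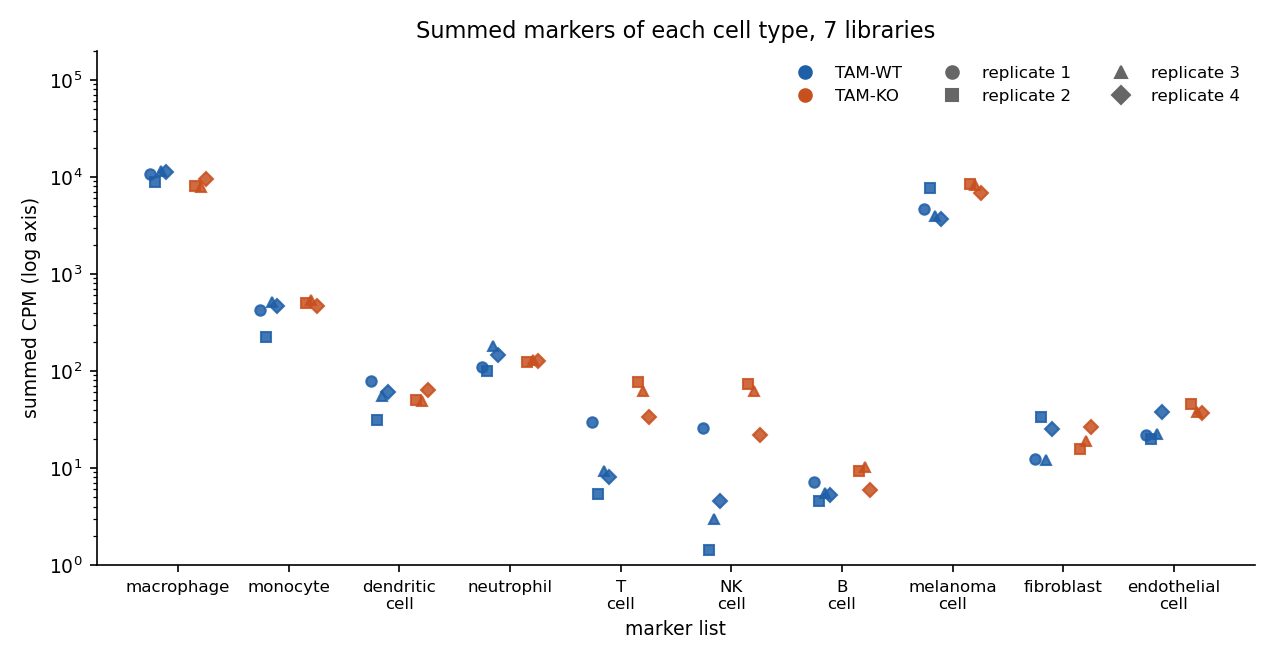
Summed CPM of the markers of each cell type (log axis) in the 4 TAM-WT (blue) and 3 TAM-KO (orange) libraries that list every gene, with the replicate number as the symbol. T cell sums are separate, up to 30.1 in TAM-WT and from 33.4 in TAM-KO, while macrophage and dendritic cell sums overlap.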

How the data were processed

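RNA of sorted TAMs was measured in 8 libraries, grouped by the genotype in the deposited labels. The authors sequenced on BGISEQ-500. The submitters' processing notes name HISAT2 2.0.4, Bowtie2 2.2.5, RSEM 1.2.12 and GRCm38.p6. The deposited expected counts are RSEM estimates without normalization, and the deposited FPKM values were scaled by the authors to gene length and mapped reads. The authors' comparison table also holds log2 ratios, p-values and q-values, which were not used.

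For TAM-KO replicate 1, 629 values of genes blank in the other tables and 1 broken line were left out. Expected counts were rounded and tested with edgeR 4.0.16 (R 4.3.3; TMM, filterByExpr, glmQLFit, glmQLFTest) with Benjamini-Hochberg adjustment. Of the tested genes, 9396 had 8 libraries and 3016 had 7, with p adjusted over both together. CPM was computed from the counts. Ratios were tested with the exact permutation test of scipy 1.17.1. The fit was tested on simulated data. Each library is from 1 mouse, so errors carry the spread between mice.

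The 9 genes, the pathway lists and the cell type markers were chosen with earlier results of these data known. Named were all 9 genes, the pathway genes that passed and the 2 of highest FPKM of each pathway list. Of each cell type list, the 2 of highest CPM were named. Also named were the 2 genes most like each cytokine gene with a mean of at least 5 CPM. Cxcr2 and Mmp9 of the neutrophil list and Plac8 and Ly6c2 of the monocyte list were named as well. Some of the genes counted are not reported here by name. RefSeq promoters matched 4 of the 9 genes. Alternatives were DESeq2 size factors, the DESeq2 1.42.0 Wald test, limma 3.58.1 on log2 FPKM with pseudocounts of 1 and 0.1, an unfiltered table, a minimum of 10 counts in every library, a replicate block, 7 libraries for every gene, TAM-KO replicate 1 filled from the series-wide table, and each library left out.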

Additional observations from a re-analysis of the deposited data

How the results depend on the processing

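The number of cytokine genes passing was 2 in the 7-library and 8-library fits together, 1 with at least 10 counts in every library, where Il12b, Il23a and Il6 were not tested, 1 with 7 libraries for every gene, 1 with TAM-KO replicate 1 filled in, and 0 to 4 with 1 library left out. All genes passing numbered 1218, 2253 by the DESeq2 Wald test, 682 with 7 libraries for every gene, and 77 to 2755 with 1 library left out (77 without TAM-KO replicate 2 or 3, 2755 without TAM-WT replicate 2). Pathway genes passing numbered 8, 24 by DESeq2, 14 and 13 by limma with pseudocounts of 1 and 0.1, 5 with 7 libraries for every gene, 4 with TAM-KO replicate 1 filled in, and 1 to 16 with 1 library left out. Lif passed by DESeq2 (-2.34). Osm did not pass with 7 libraries for every gene (-1.33) or with TAM-KO replicate 1 filled in (-1.12). With 1 library left out, log2 fold changes ranged from -1.72 to -1.15 for Il10, -2.01 to -1.53 for Il12b, -1.61 to -1.11 for Osm, -2.88 to -1.62 for Lif, -0.16 to 0.04 for Ebi3 and -0.25 to 0.04 for Il15. Ebi3 and Il15, which passed in no fit, changed sign: Ebi3 was 0.04 in both limma fits, 0.02 with 7 libraries for every gene, and 0.02 and 0.04 without TAM-KO replicate 1 and TAM-WT replicate 1; Il15 was 0.01 and 0.02 in the limma fits with pseudocounts of 1 and 0.1, and 0.04 without TAM-KO replicate 2. The cause was not tested. Il6 was not tested with TAM-KO replicate 1 filled in or without TAM-WT replicate 2 or 3, since it did not pass the filter on low counts there.

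Correlations of the deviations of same-numbered libraries were -0.321, 0.02, -0.239 and 0.263 for replicates 1 to 4 over 9404 genes. Of the TAM-WT libraries only replicate 4 correlated best with its own number. Deviations within groups of 4 libraries cannot decide whether the numbers pair the mice. With a replicate block, Il10 (-1.76, adjusted p = 0.0239) and Lif (-2.56, 0.0346) passed beside Osm, Il12b did not (-1.56, 0.061), and 1080 genes passed in all. Il10, Lif, Osm and Il12b were fitted without TAM-KO replicate 1. In their block fits TAM-WT replicate 1 therefore had no same-numbered library and did not inform the genotype difference. No result was far enough from its group to be set apart among the 16 groups of 4 values examined. Il12b, Il23a and Il6 rested on 57 counts or fewer per library.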
